A study of Mus musculus with 12 samples.

Results

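The comparison described here is that of C2C12 cells in high glucose with C2C12 cells in galactose. C2C12 is an established line of mouse myoblasts, the precursor cells of muscle fibres. Cells spent 24 h in DMEM with 25 mM glucose (high glucose) or with 10 mM galactose. A group in 5 mM glucose (low glucose) serves as a reference beside each result. All 3 media held 1 mM pyruvate, 10% fetal bovine serum and 1% penicillin/streptomycin, so none of the groups lacked pyruvate or serum nutrients. Each group has 4 libraries of polyA RNA, which makes 8 in this comparison and 12 in the series. The members are the loci of the authors' deposited table that its tool marked as tested between high glucose and galactose. They number 14812 of 26271 loci, and no measured difference entered their choice. The table gives 1 pooled value per group in FPKM, a count of sequenced fragments scaled by transcript length and library size. A gene is called higher or lower where the authors' q, their p-value adjusted for multiple tests, is below 0.05. Without values per library no SD, n or depth can be given. Whether those 4 were separate cultures is not stated in the labels, so q measures the spread between these libraries, which may be technical. Since the series uses a single line of cells, the results hold for that line. The size of a difference is log2((galactose + 1)/(high glucose + 1)), computed from the deposited FPKM values and called the log2 difference below. It understates the change of genes near or below 1 FPKM. High glucose and low glucose share no libraries, but both comparisons with galactose use the same galactose libraries.

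Galactose reaches glycolysis through the Leloir pathway, which turns it into glucose 1-phosphate. It enters more slowly than glucose, and cells fed with it are known to lean on mitochondrial respiration. Myoblasts sense such a shift in several ways. The pair MondoA and Mlx switches on Txnip when hexose phosphates are plentiful. The integrated stress response, set off when amino acids run short or when proteins fold badly, raises translation of ATF4, which switches on genes of amino acid synthesis, uptake and tRNA charging. SREBP factors govern sterol synthesis, and NRF2 governs detoxification.

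The markers of myoblasts fitted the labelled line in each of the groups. In the authors' deposited table, Des, the muscle intermediate filament gene, stood at 456 against 268 FPKM in high glucose and galactose. Myod1, the master regulator of the lineage, stood at 154 against 71.5 FPKM, and Pax7, the stem cell factor, at 11.5 against 4.49 FPKM. Of the lists of markers of other cell types, 0 of 10 endothelial genes were tested, 2 of 10 epithelial, 2 of 9 adipocyte, 3 of 14 macrophage and blood, 5 of 14 neural and glial, 2 of 10 fibroblast and 7 of 14 osteoblast and chondrocyte genes. Vwf, Csf1r and Cdh1, which mark endothelium, macrophages and epithelium, stayed at 0.21 FPKM or below in all 3 groups of the authors' deposited table. The macrophage and epithelial lists also hold expressed genes. Their highest values were 72.7 and 37.3 FPKM in high glucose and 98.6 and 44.0 FPKM in galactose in the authors' deposited table. Of the tested markers, 2 of 2 fibroblast, 5 of 7 osteoblast and 3 of 5 neural genes were lower in galactose, and 1 neural, 1 adipocyte, 1 macrophage and blood and 1 epithelial gene were higher. The summed FPKM of all listed markers went from 54.3 to 19.9 for fibroblasts, from 1363 to 557 for osteoblasts and from 151 to 131 for neural cells. It went from 12.3 to 17.3 for adipocytes, from 80.1 to 105 for macrophages and blood and from 37.8 to 44.6 for epithelium. Each of these sums rested mostly on 1 gene, the neural sum less so than the others. Tubb3, in the neural list, went from 81.2 FPKM to 95.1 in the authors' deposited table, although that sum fell. Spp1, in the osteoblast list, went from 1306 FPKM to 512 in the authors' deposited table. Pdgfrb, in the fibroblast list, went from 52.2 FPKM to 18.3, and Pparg, in the adipocyte list, from 11.9 FPKM to 17.0 there. The part of other cell types in the results was not tested. In bulk RNA, fewer cells of a type and less RNA per cell cannot be told apart. Some loci carry values that do not match the known abundance of their gene: Gapdh, a glycolytic enzyme of every cell, was listed at 0.924 against 0.949 FPKM, and Cycs, the cytochrome c gene, at 0.605 against 0.936 FPKM. The cause was not tested, and both genes count among the tested members of their lists. Loci that include Actb, Vim and a pair on the mitochondrial chromosome exceeded the tool's read limit and are listed at 0.

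Of the 14812 tested loci, 7600 were called (51.3%), 3921 higher in galactose (26.5%) and 3679 lower (24.8%). These shares are the background for every count below, and the median log2 difference of all tested loci was 0.0048. Most called differences were small. The median absolute log2 difference of called loci was 0.37, and 5207 of them (68.5%) lay under 0.5. A log2 difference of 1 or more was reached by 283 called loci (1.91%), and -1 or less by 297 (2.01%). Highly expressed loci were more often higher and weakly expressed loci more often lower. Among loci with a mean of 100 FPKM or more, 585 of 1120 were called higher and 137 lower, with a median log2 difference of 0.21. Among loci below 1 FPKM, 201 of 1849 were called higher and 563 lower, with a median of -0.12. Summed over all loci, FPKM came to 617537 in galactose, 582498 in low glucose and 548145 in high glucose. Scaling both groups to the same sum lowered the median of all tested loci by 0.15, while the share of called loci that were higher moved from 51.6% to 50.8%. A list whose median lies between 0 and about 0.15 therefore has no stable direction, and most such lists are given by counts alone. The members of the lists fell unevenly: of 44 tested genes of ribosome biogenesis 42 were higher, and of 25 of cholesterol synthesis 21 were lower, while most lists held calls in both directions.

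**Figure D1:**
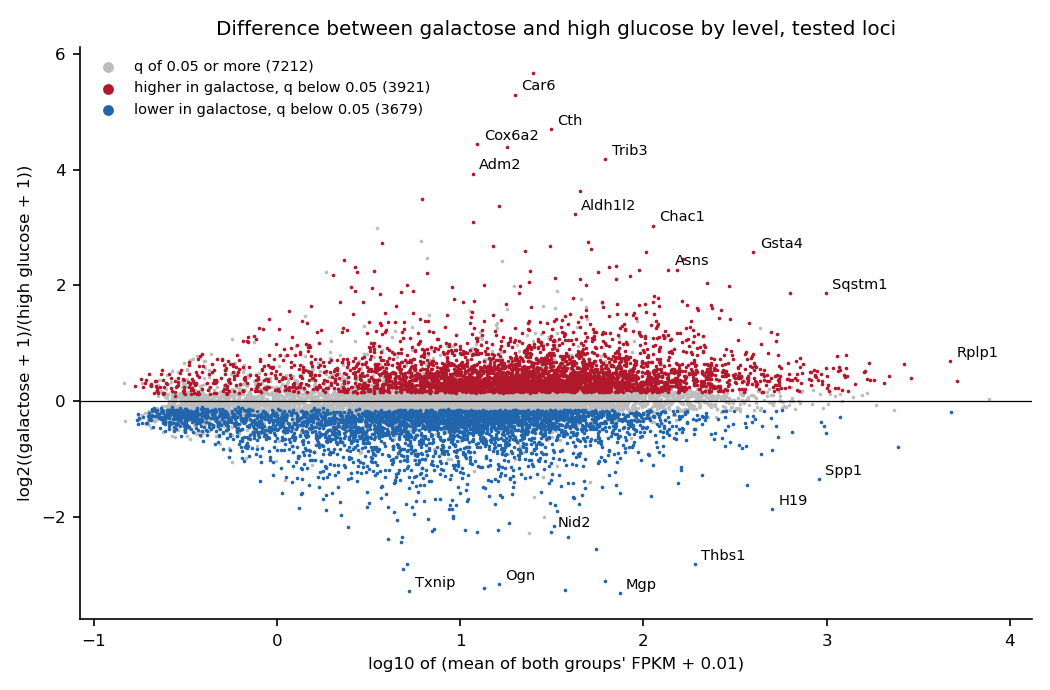
Each point is 1 of 14812 tested loci, placed by the log10 of its mean FPKM plus 0.01 (x axis) and by its log2 difference, galactose over high glucose, with 1 FPKM added to each (y axis). Red points are the 3921 loci called higher in galactose, blue points the 3679 called lower and grey points the rest; red points prevail toward the right and blue points toward the left.

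**Figure D2:**
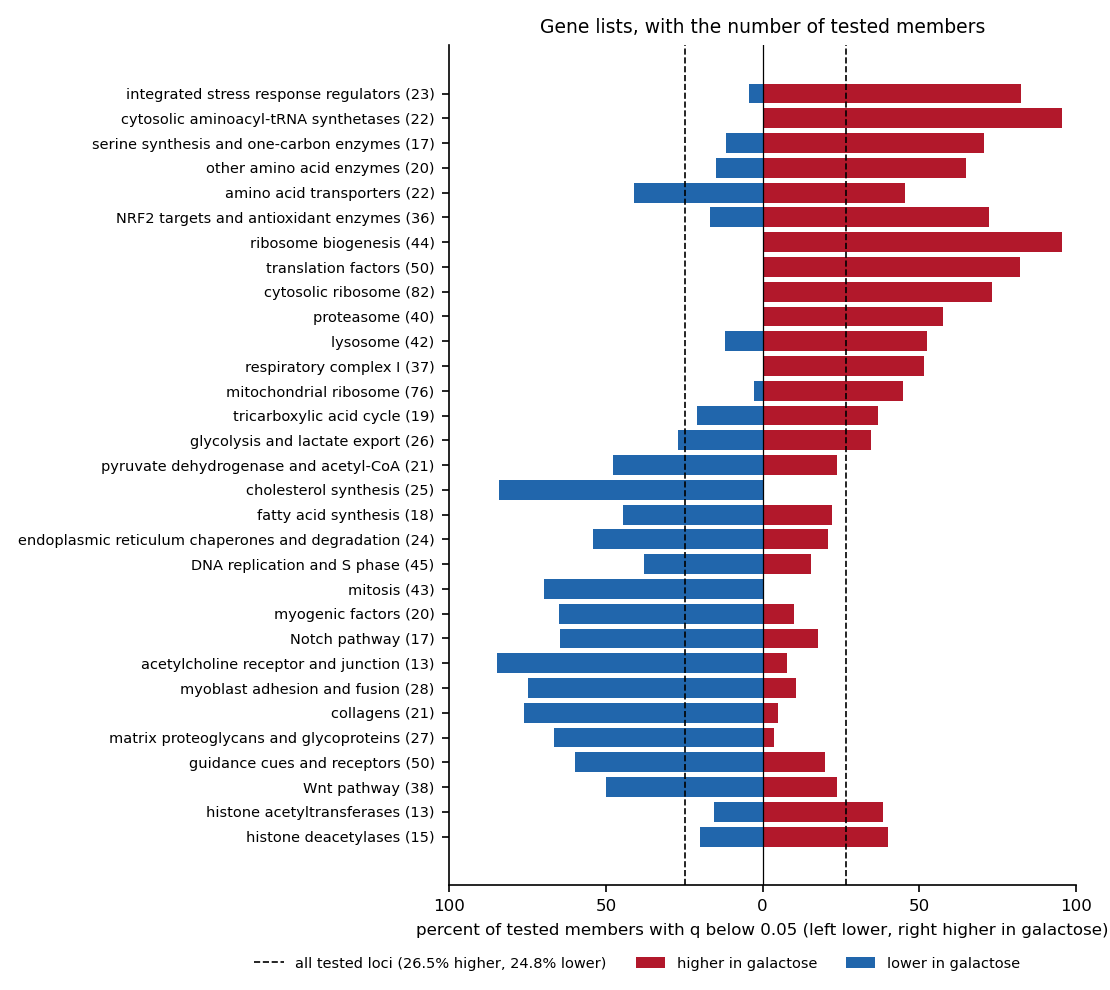
Percent of the tested members of 31 gene lists (rows, number tested in brackets) with q below 0.05 in the authors' deposited table, higher in galactose to the right and lower to the left. Dashed lines mark the shares of all tested loci, 26.5% and 24.8%; ribosome biogenesis and tRNA synthetases lie far right, and the acetylcholine receptor and cholesterol lists far left.

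The largest gains and losses in FPKM among named genes covered diverse functions. Rplp1, a protein of the ribosomal stalk, went from 3625 FPKM to 5863 in the authors' deposited table, the largest gain of any named gene. Fth1, the heavy chain of ferritin, went from 2063 FPKM to 3211 and Sqstm1, the autophagy receptor p62, from 427 FPKM to 1559.8 in the authors' deposited table. Mt1, a metallothionein that binds zinc and copper, went from 936 FPKM to 1404, and Ybx1, a protein that packages messenger RNA, from 303 FPKM to 695 in the authors' deposited table. Serpinf1, a secreted serpin also called PEDF, went from 330.02 FPKM to 740.1 in the authors' deposited table. S100a4, a calcium-binding protein linked to cell motility, had the largest loss, from 3114 FPKM to 1803, and Spp1, the matrix protein osteopontin, the next, from 1306 FPKM to 512 in the authors' deposited table. Tmsb4x, the actin-binding thymosin beta 4, went from 1179.5 FPKM to 801 in the authors' deposited table. H19, an imprinted non-coding RNA abundant in myoblasts, went from 793 FPKM to 217 in the authors' deposited table. Aqp5, a water channel, went from 537 FPKM to 197, and Crip1, a LIM domain protein, from 574 FPKM to 303 in the authors' deposited table. Acta2, smooth muscle actin, and Lmna, lamin A, were lower by less, at 1113 against 824 FPKM and 1291 against 1062 FPKM in the authors' deposited table.

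A small set of genes was near silent in 1 medium. Below 1 FPKM in 1 group and at 5 FPKM or more in the other stood 23 loci, 15 of them on in galactose and 8 off, and 21 of the 23 were called. Genes on in galactose had diverse known functions. Car6, a secreted carbonic anhydrase, stood at 0.0299 FPKM in high glucose, 0.498 FPKM in low and 39.6 FPKM in galactose in the authors' deposited table. Cdsn, an adhesive protein of skin, stood at 0.731 FPKM in high glucose, 4.07 FPKM in low and 35.2 FPKM in galactose in the authors' deposited table. Both rose mainly between low glucose and galactose, as did Avil, an actin-severing protein of sensory neurons, with 0.263 FPKM in low glucose and 12.2 in galactose in the authors' deposited table. Cox6a2, a subunit of cytochrome c oxidase made in heart and skeletal muscle, was at 1.16 FPKM in low glucose and 24.6 in galactose, while the ubiquitous form Cox6a1 stayed at 635 against 661 FPKM in the authors' deposited table and was not called (q = 0.527). Adm2, a peptide hormone of the adrenomedullin family, differed in another way: it was at 0.556 FPKM in high glucose, 9.59 FPKM in low and 22.8 FPKM in galactose in the authors' deposited table. Atp2a3, a calcium pump of the endoplasmic reticulum, and Vldlr, a lipoprotein receptor, reached 7.22 and 6.26 FPKM in galactose in the authors' deposited table. Tpsab1, a mast cell tryptase, has close paralogs that could share its reads; its main locus went from 5.93 FPKM to 84.7 in the authors' deposited table. A minor locus of St3gal4, a sialyltransferase, stood at 0.808 against 11.3 FPKM in the authors' deposited table but did not pass (q = 0.149). Of the loci off in galactose, Txnip, whose product restrains glucose uptake, stood at 10.3 FPKM in high glucose, 6.21 FPKM in low and 0.160 FPKM in galactose in the authors' deposited table. Sfrp2, a secreted inhibitor of Wnt proteins, went from 9.31 FPKM to 0.376, and Fgfr4, a receptor for fibroblast growth factors expressed in myoblasts, from 8.73 FPKM to 0.809 in the authors' deposited table. Dapk2, a calcium-regulated kinase, Daam2, a formin of Wnt signalling, and Cd200, a surface glycoprotein, reached 0.524, 0.613 and 0.902 FPKM in the authors' deposited table. Car2, a cytosolic carbonic anhydrase, and Mcpt8, a mast cell protease, fell below 1 FPKM as well.

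The regulators of the integrated stress response formed the group with the highest median log2 difference, 1.39: 19 of 23 tested members were higher in galactose and 1 lower. Atf4, its central transcription factor, stood at 294 FPKM in high glucose, 437 FPKM in low and 585 FPKM in galactose in the authors' deposited table. Ddit3, the factor CHOP, stood at 48.2 FPKM in high glucose, 86.4 FPKM in low and 156 FPKM in galactose, and Trib3, a pseudokinase that restrains ATF4, at 5.58, 49.0 and 118 FPKM in that order in the authors' deposited table. Their log2 differences were 0.99, 1.68 and 4.18, and the level in low glucose lay between the others for each of the 3 genes. Chac1, an enzyme that breaks down glutathione, went from 23.7 FPKM to 202 in the authors' deposited table. Eif4ebp1, the repressor of cap-dependent translation, went from 268 FPKM to 987, and Sesn2, a leucine sensor that inhibits mTORC1, went from 8.55 FPKM to 38.7 in the authors' deposited table. The secreted stress hormones of the list differed in level: Gdf15 went from 52.5 FPKM to 155, while Fgf21 only reached 2.22 FPKM, from 0.0925, in the authors' deposited table. Cebpb, a partner of ATF4, and Nupr1, a stress-induced chromatin protein, had log2 differences of 1.39 and 1.82. Gadd45a, a stress gene outside the list, went from 28.8 FPKM to 178 in the authors' deposited table.

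Enzymes that attach amino acids to tRNA rose almost as a set. Of 22 tested cytosolic synthetases and their cofactors, 21 were higher and 0 lower, with a median log2 difference of 1.08, and 14 of 22 also differed between low glucose and galactose, a comparison in which 33.3% of all loci did. Sars, for serine, went from 82.3 FPKM to 263, Lars, for leucine, from 45.0 FPKM to 144, and Gars, for glycine, from 116 FPKM to 357 in the authors' deposited table. Xpot, which exports tRNA from the nucleus, went from 23.7 FPKM to 67.1 in the authors' deposited table. The mitochondrial synthetases differed in size: 8 of 17 were higher and 1 lower, with a median of 0.20, or 0.05 after scaling to the same sum. Among those at a locus of their own, the largest value was 0.52 for Nars2. The locus with Tars2 had a larger value, but it also holds Ecm1 and Rprd2. Iars2 did not pass, at 26.3 against 29.2 FPKM in the authors' deposited table (q = 0.214).

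Genes of serine synthesis and of the folate enzymes that use serine were mostly higher. Of 17 tested enzymes, 12 were higher and 2 lower, with a median log2 difference of 0.46. The 3 enzymes from 3-phosphoglycerate to serine, Phgdh, Psat1 and Psph, had log2 differences of 1.13, 1.26 and 2.33. The mitochondrial folate enzymes Shmt2, Mthfd2, Mthfd1l and Aldh1l2 had 1.98, 1.72, 1.19 and 3.23. Shmt2, which splits serine into glycine and a carbon unit carried by folate, stood at 117 FPKM in high glucose, 282 FPKM in low and 467 FPKM in galactose in the authors' deposited table. Other enzymes of amino acids gave 13 higher and 3 lower of 20. Cth, which makes cysteine from cystathionine, had the second largest log2 difference of all named genes, 4.71: it stood at 1.37 FPKM in high glucose, 9.08 FPKM in low and 61.0 FPKM in galactose in the authors' deposited table. Its locus lies on chromosome 3 from 157894246 to 157925063 (mm10). Asns, the asparagine synthetase, went from 46.2 FPKM to 227, and Gpt2, a mitochondrial alanine transaminase, from 19.3 FPKM to 94.2 in the authors' deposited table. Aldh18a1 and Pycr1, which lead from glutamate to proline, had log2 differences of 1.72 and 1.77, and Bcat1, which starts the breakdown of branched-chain amino acids, 1.36. Amino acid transporters divided. Of 22 tested, 10 were higher and 9 lower. Slc7a5 and Slc3a2, both chains of a leucine exchanger, went from 86.1 FPKM to 357 and from 96.5 FPKM to 298 in the authors' deposited table. Slc6a9, a glycine transporter, had a log2 difference of 2.69, the glutamine transporter Slc1a5 1.79 and the cystine transporter Slc7a11 1.72. Slc1a3, a glutamate transporter, went the other way, with 9.09 FPKM in high glucose, 2.28 FPKM in low and 1.83 FPKM in galactose in the authors' deposited table.

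**Figure D3:**
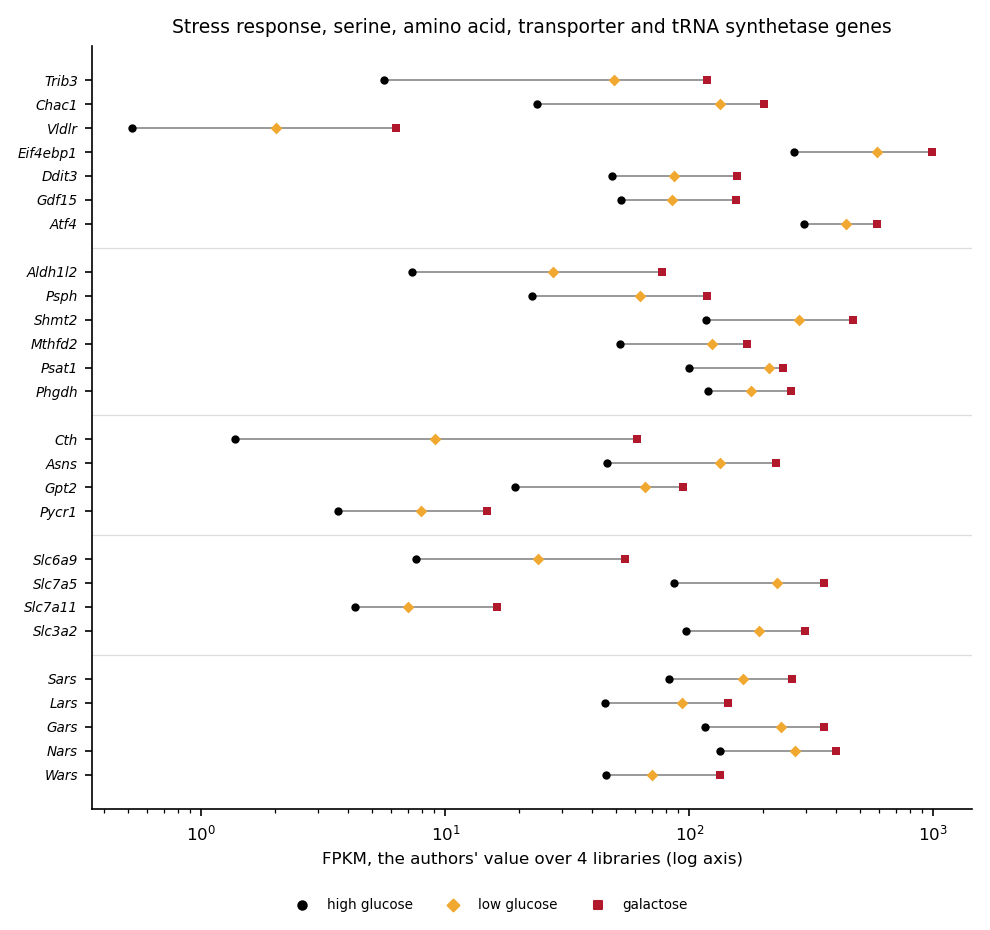
FPKM of 26 genes in the authors' deposited table (x axis, log scale) in high glucose (black circles), low glucose (orange diamonds) and galactose (red squares), grouped from top to bottom as stress response regulators, serine and folate enzymes, other amino acid enzymes, transporters and tRNA synthetases. For every gene shown, the low glucose value lies between the values in high glucose and galactose, as for Trib3 at 5.58, 49.0 and 118 FPKM.

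The promoters of these genes were searched for the element that ATF4 binds. ATF4 with a C/EBP partner binds a composite element whose core can be written TGATGNAA. RefSeq promoters (GRCm38.p6, the build called mm10) were searched on both strands from 250 bases before to 50 after the start, and 8309 tested genes had such a promoter. The core was found in 4.51% of 27025 genes with a promoter and in 2.78% of the tested genes. Of 148 genes called higher with a log2 difference of 1 or more it was found in 28 (18.9%), against 3 of 179 called lower by as much (1.68%). By list, it was in 7 of 21 promoters of stress response regulators, 5 of 14 of cytosolic tRNA synthetases, 3 of 14 of other amino acid enzymes and 2 of 16 of amino acid transporters. It was in none of 13 promoters of serine and folate enzymes, none of 61 of ribosomal proteins and 1 of 39 of ribosome biogenesis. It was in 2 of 20 promoters of cholesterol synthesis, a list with lower members. A match describes letters and not a binding site, and no match says only that these letters are not in the window. Each of the 4 motifs used here was searched by itself, so that a base could count in more than 1. A match anywhere in the window was held by 15 list members called higher by a log2 difference of 1 or more. Of those with a match before the start, the 10 with the largest difference are printed below, in falling order. They show the core in capitals, read in its own direction, with up to 16 bases on each side.
Chac1, chr2:119351033-119351072, minus strand: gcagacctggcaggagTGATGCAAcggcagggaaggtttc
Asns, chr6:7693210-7693248, minus strand: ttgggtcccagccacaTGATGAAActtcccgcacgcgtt
Vldlr, chr19:27216804-27216843, minus strand: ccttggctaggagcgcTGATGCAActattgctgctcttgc
Nupr1, chr7:126625557-126625596, plus strand: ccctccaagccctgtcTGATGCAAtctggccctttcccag
Pycr1, chr11:120643828-120643867, minus strand: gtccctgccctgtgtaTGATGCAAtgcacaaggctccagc
Slc7a11, chr3:50443637-50443676, plus strand: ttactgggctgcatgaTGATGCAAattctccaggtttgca
Gars, chr6:55037955-55037994, minus strand: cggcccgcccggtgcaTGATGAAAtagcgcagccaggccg
Fgf21, chr7:45615606-45615645, plus strand: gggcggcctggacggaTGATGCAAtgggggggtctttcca
Atf3, chr1:191183420-191183459, plus strand: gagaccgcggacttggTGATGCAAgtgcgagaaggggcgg
Tars, chr15:11399659-11399689, plus strand: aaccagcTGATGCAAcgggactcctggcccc

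The core began between 200 bases (Vldlr) and 15 bases (Tars) before the start. It read TGATGCAA in 8 of the 10 stretches and TGATGAAA in Asns and Gars. Trib3, with the highest log2 difference among the regulators, is one of the 15. It held no whole match before its start, so that no stretch of it is printed.

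Most genes of the machinery of protein synthesis were higher in galactose. Of 44 tested genes of ribosome biogenesis, which process ribosomal RNA in the nucleolus, 42 were higher and 0 lower, with a median log2 difference of 0.59. Ncl, nucleolin, stood at 122 FPKM in high glucose, 216 FPKM in low and 274 FPKM in galactose in the authors' deposited table. Npm1, nucleophosmin, went from 149 FPKM to 287, and Nop56 and Nop58, core proteins of small nucleolar ribonucleoproteins, had log2 differences of 0.82 and 0.90. For this list 11 of 44 members differed between low glucose and galactose, against 33.3% of all loci, and its median in low glucose against high glucose was 0.50. Host genes of small nucleolar RNAs gave 6 higher of 8, among them Snhg6 at 22 against 42.7 FPKM in the authors' deposited table. Of 82 tested ribosomal protein genes, 60 were higher and 0 lower, with a median of 0.40. Most of these genes have pseudogene copies that can share or lose reads, so their levels are uncertain: Rps29 was listed at 3.73 against 6.16 FPKM and Rps10 at 2.51 against 4.49 FPKM, beside Rpl32 at 1058 against 1440.4 FPKM in the authors' deposited table. Translation factors gave 41 higher and 0 lower of 50. Eif5a went from 799 FPKM to 1187 and Eif3c, a subunit of an initiation complex, from 104 FPKM to 254 in the authors' deposited table. Eef2k, the kinase that slows elongation, was also higher, with a log2 difference of 0.84. Purine and pyrimidine synthesis gave 15 higher and 1 lower of 22, with Atic, which closes the purine ring, at 97.8 against 176 FPKM in the authors' deposited table. Nucleoporins and transport receptors gave 20 higher and 0 lower of 35, with Ipo7, an importer of ribosomal proteins, at 33.4 against 58.4 FPKM in the authors' deposited table. The median of that list was 0.21, or 0.06 after scaling to the same sum. Myc, which drives many of these genes, stood at 44.2 FPKM in high glucose, 72.8 FPKM in low and 78.2 FPKM in galactose in the authors' deposited table, with q = 0.205 between low glucose and galactose.

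Detoxification genes were mostly higher in galactose. Of 36 tested NRF2 targets and antioxidant enzymes, 26 were higher and 6 lower, with a median log2 difference of 0.58, and 30 of 36 differed between low glucose and galactose, against 33.3% of all loci. Gsta4, a glutathione transferase for products of lipid peroxidation, stood at 113 FPKM in high glucose, 123 FPKM in low and 683 FPKM in galactose in the authors' deposited table. Gsta1 and Gsta2, near-identical copies that can share reads, stood at 1.68 FPKM in high glucose, 1.71 FPKM in low and 21.9 FPKM in galactose and at 2.03, 2.13 and 30.4 FPKM in that order in the authors' deposited table. Gclm, the regulatory subunit of the first enzyme of glutathione synthesis, went from 33.7 FPKM to 95.6, and Txnrd1, thioredoxin reductase, from 139 FPKM to 267 in the authors' deposited table. Sod3, an extracellular superoxide dismutase, was lower, from 15.4 FPKM to 3.69 in the authors' deposited table. The antioxidant response element core TGACNNNGC was in 27.6% of 29 promoters of this list and in 17.2% of tested genes. Other lists held it as often or more, with 37.5% of amino acid transporters and 28.6% of cytosolic synthetases. It was in 16.2% of the genes higher by 1 or more and in 22.3% of those at -1 or less. Gclm shows it 134 bases before its start.
Gclm, chr3:122245407-122245447, minus strand: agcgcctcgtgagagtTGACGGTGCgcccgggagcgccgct

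Among genes of iron handling 11 of 20 were higher and 3 lower, with a median of 0.26, or 0.09 after scaling to the same sum. Hmox1, which frees iron from haem, went from 99.7 FPKM to 264, and Slc25a37, a mitochondrial iron importer, from 23.5 FPKM to 48.1 in the authors' deposited table. The proteasome gave 23 higher and 0 lower of 40, led by Psmc6, an ATPase of its cap, with a log2 difference of 0.69. Its median of 0.20 lies between those of all loci of 20 to 100 FPKM, 0.11, and of 100 FPKM or more, 0.21, and was 0.03 after scaling to the same sum. Of 42 tested lysosomal genes, 22 were higher and 5 lower, and 29 of 42 differed between low glucose and galactose. The median log2 difference of the lysosomal list was 0.23, or 0.06 after scaling to the same sum. Ctsl and Ctsb, lysosomal proteases, went from 223 FPKM to 389.5 and from 175 FPKM to 294, and Gla, which removes galactose from glycolipids, from 5.93 FPKM to 12.8 in the authors' deposited table. Tfeb, the transcription factor of lysosomal genes, went the other way, from 7.59 FPKM to 3.76 in the authors' deposited table. The autophagy list had no common direction, with 7 higher and 9 lower of 26: Sqstm1 had a log2 difference of 1.87, and the initiating kinases Ulk1 and Ulk2 had -0.45 and -0.50.

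Sugar metabolism moved gene by gene, not as whole pathways. The glucose sensor list gave 1 higher and 5 lower of 8. Txnip had a log2 difference of -3.28, while the related arrestin gene Arrdc4 was low in every medium, at 0.486 FPKM in high glucose, 0.384 FPKM in low and 0.0393 FPKM in galactose in the authors' deposited table. Mlx, the partner of MondoA, was lower by little, at 16.9 against 14.5 FPKM in the authors' deposited table. MondoA and Mlx bind pairs of E-boxes, CACGTG or near forms; the exact E-box was in 11.9% of tested genes' promoters. In Arrdc4 it lay 193 bases before the start, and the window of Txnip held none.
Arrdc4, chr7:68749410-68749447, minus strand: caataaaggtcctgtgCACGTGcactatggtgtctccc

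Of 26 glycolytic genes, 9 were higher and 7 lower. Hk2, the inducible hexokinase, stood at 21.9 FPKM in high glucose, 28.2 FPKM in low and 47.3 FPKM in galactose in the authors' deposited table. Slc16a3, which exports lactate, went from 18.3 FPKM to 11.5, and Pfkm, the muscle phosphofructokinase, from 25.1 FPKM to 18.2 in the authors' deposited table. Ldha and Pkm, the most abundant genes of the list, were not called, at 430.4 against 401 FPKM (q = 0.210) and 1494 against 1608 FPKM (q = 0.285) in the authors' deposited table. Sugar transporters, a separate list, gave 1 higher and 4 lower of 7, with a median of -0.36. Of 10 found, 7 were below 1 FPKM in high glucose. The 1 higher was Slc2a1, the glucose transporter GLUT1, at 91.2 FPKM in high glucose, 72.1 FPKM in low and 121 FPKM in galactose in the authors' deposited table. The Leloir enzymes, which handle galactose itself, split as well, 4 higher and 2 lower of 9. Galm, the mutarotase that readies galactose for the kinase, went from 7.39 FPKM to 16.9, and Galk1, the kinase, from 77.0 FPKM to 91.7 in the authors' deposited table. Pgm1, the mutase that leads to glycolysis, had a log2 difference of 0.32. Of 15 glycogen genes 6 were higher and 4 lower. Stbd1, which tethers glycogen to membranes, went from 25.3 FPKM to 71.6, Gbe1, the branching enzyme, from 4.50 FPKM to 10.6, and Gys1, glycogen synthase, from 16.5 FPKM to 33.8 in the authors' deposited table, while the phosphorylase Pygb went from 23.3 FPKM to 16.3 and Phka2, a subunit of its kinase, from 6.92 FPKM to 4.99. The pentose phosphate list gave 5 higher and 0 lower of 8: Pgd, Tkt and Taldo1 had log2 differences of 0.87, 0.67 and 0.54. Its median was 0.22, or 0.06 after scaling to the same sum. In the hexosamine pathway Ogt, which attaches N-acetylglucosamine to proteins, went from 16.1 FPKM to 25.9, and its opponent Mgea5 from 10.2 FPKM to 8.20 in the authors' deposited table. Known targets of hypoxia-inducible factors gave 7 higher and 7 lower of 17: Ero1l, an oxidase of the endoplasmic reticulum, Ndrg1 and Vegfa had 1.99, 1.62 and 1.14, whereas Pdk1 had -0.29.

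Genes around pyruvate and acetyl-CoA were more often lower, 10 of 21, than higher, 5. Pdk4 and Pdk2, kinases that switch off pyruvate dehydrogenase, went from 17.2 FPKM to 4.50 and from 3.70 FPKM to 1.77 in the authors' deposited table. Acss2, which makes acetyl-CoA from acetate, went from 2.39 FPKM to 0.676, and Acly, which makes it from citrate, from 58.3 FPKM to 46.8 in the authors' deposited table. Pdha1, the catalytic subunit of pyruvate dehydrogenase, was not called, at 91.2 against 101 FPKM in the authors' deposited table (q = 0.204). In the tricarboxylic acid cycle 7 were higher and 4 lower of 19, and the largest absolute value was that of Idh1, the cytosolic isocitrate dehydrogenase, with -0.92. Respiratory chain genes were more often higher than lower, with many not called. Complex I gave 19 higher and 0 lower of 37 with a median log2 difference of 0.18, complexes II and III 8 and 1 of 14 with 0.23, cytochrome c oxidase 5 and 1 of 14, and ATP synthase 7 and 0 of 16 with 0.18. These medians are near those of all loci of 20 to 100 FPKM, 0.11, and of 100 FPKM or more, 0.21. After scaling to the same sum the medians were 0.02, 0.06, -0.03 and 0.02, so the sign flipped for cytochrome c oxidase. Single subunits stood apart. Uqcrq, of complex III, went from 343 FPKM to 710.3, whereas Uqcrh of the same complex went from 148 FPKM to 109 in the authors' deposited table. Cox7a1, another muscle form in cytochrome c oxidase, was lower at 2.27 against 1.18 FPKM in the authors' deposited table, the opposite of Cox6a2. Ppargc1a, the coactivator PGC-1 alpha known to drive mitochondrial biogenesis, was not tested, at 0.152 against 0.0602 FPKM in the authors' deposited table, and its list gave 3 higher and 0 lower of 12. Of 14 mitochondrial chaperones and proteases, 9 were higher and 1 lower, with a median of 0.42. Lonp1, the matrix protease, stood at 74.9 FPKM in high glucose, 118 FPKM in low and 251 FPKM in galactose in the authors' deposited table. Hspa9 and Hspd1, the chaperones mortalin and HSP60, had log2 differences of 1.34 and 0.87, and Chchd10, a protein of the cristae, 2.69. Mitochondrial ribosomal proteins gave 34 higher and 2 lower of 76, and the largest value was 0.66 for Mrps18b. Their median was 0.17, or 0.006 after scaling to the same sum. Mitochondrial carriers split, 9 higher and 8 lower of 32: Slc25a33, a pyrimidine nucleotide carrier, went from 4.99 FPKM to 18.8 in the authors' deposited table. Enzymes of fatty acid oxidation gave 7 higher and 7 lower of 20. Acadm, which handles medium chains, went from 28.2 FPKM to 16, while Acadl, for long chains, went from 71.4 FPKM to 92.5 in the authors' deposited table.

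**Figure D4:**
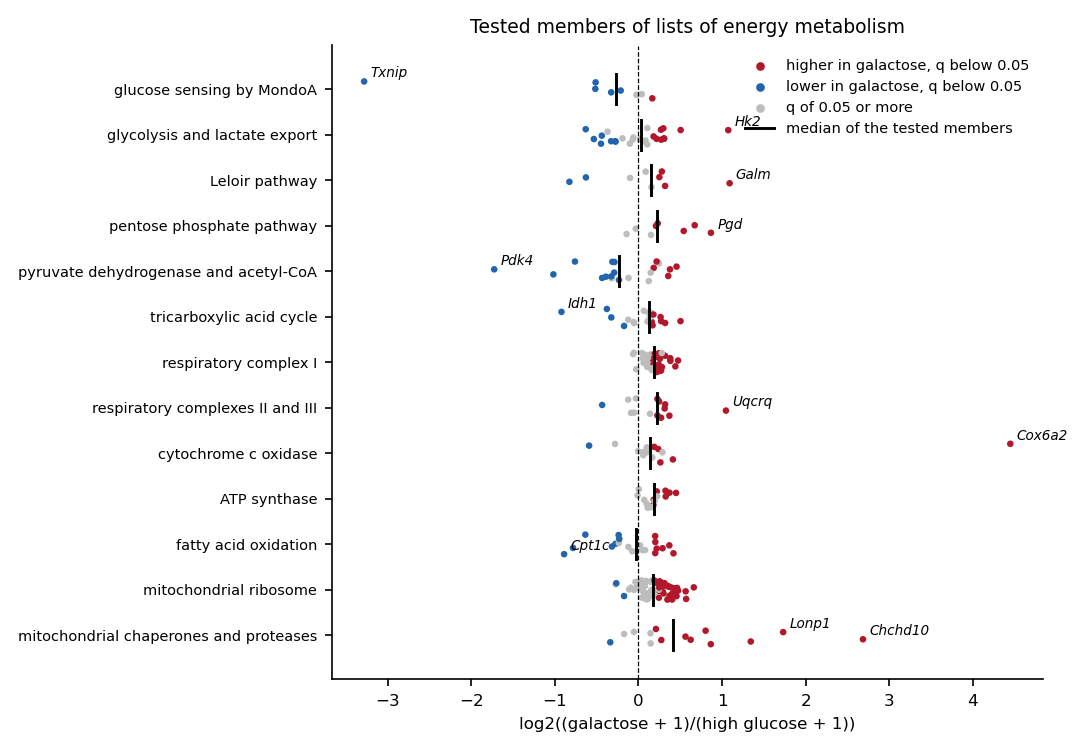
Log2 difference, galactose over high glucose, with 1 FPKM added to each (x axis), of each tested member of 13 gene lists (rows). Points are genes, red where called higher, blue where called lower and grey otherwise, and black bars are medians; points of the respiratory chain crowd just right of 0, and Txnip at -3.28 and Cox6a2 at 4.45 lie farthest out.

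Genes of cholesterol synthesis formed the group with the lowest median log2 difference. Of 25 tested genes of cholesterol synthesis and its control, 21 were lower and 0 higher, 19 of them by a log2 difference of -1 or less, with a median of -1.24. Between low glucose and galactose 21 of 25 differed, against 33.3% of all loci. Srebf2, the factor that switches the pathway on, stood at 92.0 FPKM in high glucose, 62.1 FPKM in low and 37.4 FPKM in galactose in the authors' deposited table. Hmgcs1, the enzyme that commits acetyl-CoA to the pathway, stood at 53.5 FPKM in high glucose, 30.03 FPKM in low and 13.6 FPKM in galactose in the authors' deposited table. Later enzymes fell by like amounts: Fdps, Mvd and Cyp51 had log2 differences of -1.62, -1.50 and -1.49. Insig1, which holds SREBP factors back when sterols are plentiful and is itself an SREBP target, had -2.11. A separate list of sterol uptake and export was mixed, 5 higher and 4 lower of 13, with a median of -0.09. Stard4, a sterol carrier, went from 9.30 FPKM to 2.48 in the authors' deposited table. Npc1, which releases cholesterol from lysosomes, went the other way, from 15.6 FPKM to 25.1 in the authors' deposited table. The sterol regulatory element TCACNCCAC was in 1 of 20 promoters of the cholesterol synthesis list, that of Hmgcs1. It was in 1.44% of tested genes and in 5.03% of the 179 genes called lower by -1 or less. In Hmgcs1 this element began 137 bases before the start.
Hmgcs1, chr13:119690198-119690238, plus strand: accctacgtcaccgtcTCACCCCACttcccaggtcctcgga

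Fatty acid synthesis gave 8 lower and 4 higher of 18. Fads2, a desaturase of polyunsaturated fatty acids, went from 56.2 FPKM to 25.8, Scd1, the stearoyl desaturase, from 39.9 FPKM to 23.4, and Fasn, fatty acid synthase, from 75.5 FPKM to 54.8 in the authors' deposited table. Among genes of lipid storage, 7 were higher and 5 lower of 22. Plin2, which coats lipid droplets, stood at 138 FPKM in high glucose, 237 FPKM in low and 377 FPKM in galactose and G0s2, an inhibitor of lipolysis, at 37.1, 72.3 and 71.5 FPKM in that order in the authors' deposited table, while Cebpa went from 8.59 FPKM to 3.80.

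Genes of the myoblast state were mostly lower in galactose. Of 20 tested myogenic factors and their partners, 13 were lower and 2 higher, with a median log2 difference of -0.54. Myod1 stood at 154 FPKM in high glucose, 108 FPKM in low and 71.5 FPKM in galactose and Pax7 at 11.5, 7.34 and 4.49 FPKM in that order in the authors' deposited table. Myf5 went from 19.1 FPKM to 13.0 and Myog, which starts terminal differentiation, was at 3.61 FPKM in high glucose, 1.42 FPKM in low and 2.78 FPKM in galactose in the authors' deposited table. The list also counts Id3, an inhibitor of these factors, among its 13 lower members. The inhibitors Id2 and Id3 had log2 differences of -1.22 and -0.84, whereas Id1 was not called, at 241 against 225 FPKM in the authors' deposited table (q = 0.242). Notch signalling, which keeps muscle stem cells quiescent, gave 11 lower and 3 higher of 17. The receptors Notch1 and Notch3 went from 9.74 FPKM to 4.05 and from 12.9 FPKM to 5.46, and the target genes Hey1 and Hes1 from 6.72 FPKM to 2.99 and from 69.2 FPKM to 44.2 in the authors' deposited table. Jag1, a ligand, was higher, at 2.56 FPKM in high glucose, 4.20 FPKM in low and 5.58 FPKM in galactose in the authors' deposited table. The acetylcholine receptor and proteins of its synapse gave 11 lower and 1 higher of 13. Chrna1, Chrnb1, Chrnd and Chrng, subunits of the embryonic receptor, had log2 differences of -0.62, -0.76, -1.31 and -0.97. Musk, the kinase that gathers the receptor, went from 16.6 FPKM to 7.62 in the authors' deposited table. Proteins of adhesion and fusion gave 21 lower and 3 higher of 28: Cdh15, M-cadherin, stood at 104 FPKM in high glucose, 46.7 FPKM in low and 37.7 FPKM in galactose and Itga7, a laminin receptor, at 122, 79.0 and 65.8 FPKM in that order in the authors' deposited table. The sarcomere list gave 10 lower and 4 higher of 28. Acta1, skeletal actin, was higher at 16.1 FPKM in high glucose, 11.1 FPKM in low and 30.2 FPKM in galactose and Myom2, of the M band, at 1.93, 1.02 and 3.998 FPKM in that order in the authors' deposited table; for both, low glucose was the lowest of the groups. Tnnt1, slow troponin T, went from 5.99 FPKM to 1.52, and Actn3, the fast-fibre actinin, from 9.27 FPKM to 2.12 in the authors' deposited table.

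**Figure D5:**
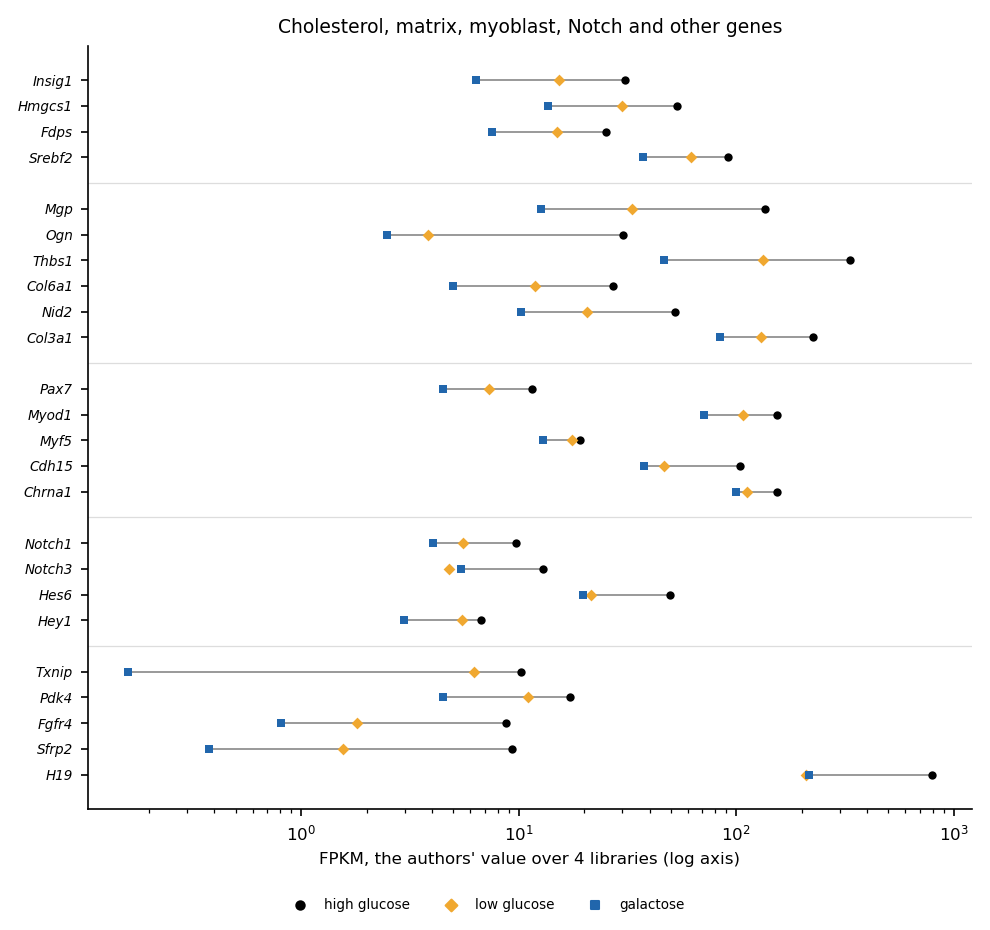
FPKM of 24 genes in the authors' deposited table (x axis, log scale) in high glucose (black circles), low glucose (orange diamonds) and galactose (blue squares), grouped from top to bottom as cholesterol genes, matrix genes, myoblast genes, Notch genes and others. The galactose value lies below the high glucose value throughout, and the low glucose diamond lies beside the galactose square for H19 and Hes6 but near the high glucose circle for Myf5.

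The series names histone acetylation in its title, and the genes of the enzymes that set it went in both directions. Of 13 acetyltransferases 5 were higher and 2 lower. Kat2a and Kat2b, the close relatives GCN5 and PCAF, went in opposite directions, from 42.5 FPKM to 59.7 and from 3.49 FPKM to 2.27 in the authors' deposited table. Ep300, the coactivator p300, was not called, at 15.0 against 14.6 FPKM in the authors' deposited table (q = 0.609). Among 15 deacetylases and corepressors 6 were higher and 3 lower. Hdac5, a class IIa enzyme that restrains muscle genes, stood at 28.3 FPKM in high glucose, 19.3 FPKM in low and 13.7 FPKM in galactose in the authors' deposited table, the largest difference of the list, and its relative Hdac4 went from 6.53 FPKM to 8.38. Sirt1, an NAD-dependent deacetylase, was not called, at 5.92 against 5.61 FPKM in the authors' deposited table (q = 0.454). Nampt, which recycles NAD, stood at 11.3 FPKM in high glucose, 14.2 FPKM in low and 17.7 FPKM in galactose in the authors' deposited table. The methylation enzymes gave 11 higher and 7 lower of 40, from -0.45 to 0.63 on the log2 scale. After scaling to the same sum, the medians of the acetyltransferase, sirtuin and methylation lists turned from 0.02, 0.03 and 0.02 to -0.15, -0.12 and -0.14.

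Extracellular matrix genes were more often lower than higher in each class. Of 21 tested collagens 16 were lower and 1 higher, with a median log2 difference of -0.60. Col3a1 and Col1a2, fibrillar chains, went from 225 FPKM to 84.0 and from 298 FPKM to 122 in the authors' deposited table. Col6a1 and Col6a2, chains of the same filament, had log2 differences of -2.23 and -1.46, and Col12a1, which coats fibrils, -1.76. Proteoglycans and glycoproteins gave 18 lower and 1 higher of 27. Mgp, matrix Gla protein, had the lowest log2 difference of all named genes, -3.32: it stood at 136 FPKM in high glucose, 33.3 FPKM in low and 12.7 FPKM in galactose in the authors' deposited table. Its locus lies on chromosome 6 from 136872435 to 136875805 (mm10). Ogn, osteoglycin, stood at 30.2 FPKM in high glucose, 3.85 FPKM in low and 2.48 FPKM in galactose, and Nid2, a basement membrane linker, at 52.5, 20.6 and 10.2 FPKM in that order in the authors' deposited table. Thbs1, thrombospondin 1, an activator of latent TGF-beta, stood at 335 FPKM in high glucose, 133 FPKM in low and 46.6 FPKM in galactose in the authors' deposited table. Several further secreted or membrane proteins outside the lists stood among the 25 largest falls. Islr, also called meflin, went from 112 FPKM to 12, Tmem119, a membrane protein of osteoblasts and microglia, from 68.3 FPKM to 6.18, and Olfml3, an olfactomedin-like protein, from 25.1 FPKM to 1.78 in the authors' deposited table. Gas1, a membrane protein of Hedgehog signalling, went from 95.1 FPKM to 15.3 and Fndc1 from 4.62 FPKM to 0.247 in the authors' deposited table. Crosslinking and elastic fibre genes were mixed, 10 lower and 3 higher of 17. Loxl1 and Lox, lysyl oxidases, went from 64.4 FPKM to 19.6 and from 138 FPKM to 73.0, whereas Fbln2 and Fbln5, fibulins of elastic fibres, went from 132 FPKM to 289 and from 3.96 FPKM to 13.0 in the authors' deposited table. Matrix proteases and their inhibitors gave 18 lower and 8 higher of 27. Adamts4, Adamts5 and Adamts7, proteases of the same family, had log2 differences of -1.16, -1.04 and -1.09, and Serpinh1, the collagen chaperone HSP47, was higher by 0.38.

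Most lists of ligands and receptors of cell signalling held more lower than higher members. Guidance cues and their receptors gave 30 lower and 10 higher of 50. Sema7a, a membrane-anchored semaphorin, stood at 44.6 FPKM in high glucose, 36.9 FPKM in low and 16.2 FPKM in galactose and Sema3a, a secreted member, at 11.4, 8.11 and 4.18 FPKM in that order in the authors' deposited table. Epha4, an ephrin receptor, had a log2 difference of -1.21. Epha2, the most abundant of the list, was not called, at 124 against 116 FPKM in the authors' deposited table (q = 0.202). The locus of Epha1, another ephrin receptor, had -2.26 but is not among the tested members counted in this list. In the Wnt pathway, 19 were lower and 9 higher of 38. The ligands Wnt10a and Wnt10b stood at 11.3 FPKM in high glucose, 4.12 FPKM in low and 2.01 FPKM in galactose and at 14.4, 5.88 and 3.71 FPKM in that order in the authors' deposited table. Ctnnb1, beta-catenin, was higher, from 200.1 FPKM to 248 in the authors' deposited table, and Wisp2, a secreted matricellular protein, stood at 3.23 FPKM in high glucose, 3.14 FPKM in low and 10.1 FPKM in galactose. The insulin-like growth factor system gave 9 lower and 3 higher of 16. Igfbp5, a binding protein, went from 224 FPKM to 97.8, and Irs1, the adaptor of the receptor, from 27.3 FPKM to 10.1 in the authors' deposited table. Fibroblast growth factor genes gave 4 lower and 8 higher of 20: Fgfr1, another receptor, went from 72.0 FPKM to 104 while Fgfr4 fell, and Etv5, a target factor, went from 3.45 FPKM to 7.51 in the authors' deposited table. In the TGF-beta family, 15 were lower and 9 higher of 37. The ligands Bmp4, Inhbb and Tgfb3 had log2 differences of -1.72, -1.69 and -1.14, and Fst, follistatin, which binds activins and myostatin, -1.24. Ctgf and Cyr61, close relatives in a matricellular family, went in opposite directions, from 82.2 FPKM to 176 and from 296 FPKM to 189 in the authors' deposited table. Vascular and platelet-derived factors were even, with 7 lower and 7 higher of 19. Angpt1 stood at 14.2 FPKM in high glucose, 8.08 FPKM in low and 3.14 FPKM in galactose in the authors' deposited table. Vegfa stood at 84.9, 136 and 189 FPKM in that order there, again in the opposite direction. Chemokines and cytokines gave 15 lower and 5 higher of 23. Cxcl12 stood at 22.5 FPKM in high glucose, 23.6 FPKM in low and 9.43 FPKM in galactose in the authors' deposited table, and its receptor Cxcr4 at 53.5, 27.9 and 11.2 FPKM in that order. Cxcl1 and Cxcl5, which draw neutrophils, had log2 differences of -1.28 and -1.29. Interferon and antigen genes gave 13 lower and 6 higher of 23: Ifitm1 went from 6.12 FPKM to 1.22, and H2-K1, a class I heavy chain, from 41.2 FPKM to 62.3 in the authors' deposited table. Prostaglandin genes were the signalling list with mostly higher members, 7 higher and 1 lower of 11. Ptgs2, the inducible cyclooxygenase, stood at 18.9 FPKM in high glucose, 40.02 FPKM in low and 78.8 FPKM in galactose and Pla2g4a, which frees its substrate, at 11.2, 15.4 and 28.4 FPKM in that order in the authors' deposited table. Ptgis, the prostacyclin synthase, went the other way, from 44.9 FPKM to 18.3 in the authors' deposited table. In the retinoid pathway 7 were lower and 3 higher of 14, with Dhrs3, which returns retinal to retinol, at 8.35 FPKM in high glucose, 1.67 FPKM in low and 1.72 FPKM in galactose in the authors' deposited table. Carbonic anhydrases split: Car3, abundant in muscle, stood at 65.5 FPKM in high glucose, 17.4 FPKM in low and 12 FPKM in galactose in the authors' deposited table beside the rise of Car6.

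Genes of mitosis were often lower, and genes of DNA replication went in both directions. Of 43 mitotic genes 30 were lower and 0 higher, with a median log2 difference of -0.26, and of 45 replication genes 17 were lower and 7 higher. The difference between the lists was not tested. Mki67, the marker Ki-67, stood at 45.6 FPKM in high glucose, 41.5 FPKM in low and 24.6 FPKM in galactose and Aurkb, a mitotic kinase, at 72.4, 64.2 and 44.4 FPKM in that order in the authors' deposited table. Cdc20, which activates the anaphase complex, was not called, at 166 against 147 FPKM in the authors' deposited table (q = 0.0808). Tk1, thymidine kinase, went from 83.8 FPKM to 45.7 and Cdt1, which licenses origins, from 54.4 FPKM to 92.7 in the authors' deposited table. A list of cell cycle inhibitors that also holds D cyclins and the kinase gene Cdk4 gave 9 lower and 3 higher of 13. The 3 higher were Cdk4, Ccnd1 and Ccnd2, so that no inhibitor was called higher. Cdkn2d and Cdkn2c, inhibitors of CDK4, went from 56.5 FPKM to 20.6 and from 36.5 FPKM to 17.3 in the authors' deposited table. Cdkn1a, p21, was not called, at 92.2 against 85.3 FPKM in the authors' deposited table (q = 0.170). The 3 D cyclins diverged: Ccnd2 stood at 5.40 FPKM in high glucose, 9.08 FPKM in low and 17.7 FPKM in galactose, Ccnd1 at 215, 291 and 282 FPKM in that order and Ccnd3 at 83.3, 64.7 and 46.1 FPKM in that order in the authors' deposited table. Kinesins gave 17 lower and 6 higher of 31, with Kif23, of cytokinesis, at 51.9 against 34.3 FPKM in the authors' deposited table. The p53 list gave 12 higher and 7 lower of 24. Its sestrins differed in direction: Sesn1 went from 8.42 FPKM to 3.55, while Sesn2, which is also an ATF4 target, rose. Trp53 itself went from 74.1 FPKM to 91.3, and Fas, the death receptor, from 1.37 FPKM to 0.234 in the authors' deposited table. Immediate early genes, which serum induces, gave 11 lower and 6 higher of 25. Egr1 stood at 41.9 FPKM in high glucose, 29.97 FPKM in low and 13.4 FPKM in galactose in the authors' deposited table, and Egr2 and Egr3 had log2 differences of -1.33 and -1.24. Klf4, a zinc finger factor, stood at 32.5 FPKM in high glucose, 48.6 FPKM in low and 75.4 FPKM in galactose in the authors' deposited table. Mxd4, an antagonist of Myc outside this list, stood at 18.2 FPKM in high glucose, 6.69 FPKM in low and 3.11 FPKM in galactose in the authors' deposited table. Clock genes gave 10 higher and 2 lower of 18, among them Nfil3, a repressor of clock output, from 14.6 FPKM to 25.7 in the authors' deposited table.

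Chaperones of the endoplasmic reticulum did not follow the stress response regulators. Of 24 tested genes 13 were lower and 5 higher. Calr, calreticulin, stood at 659 FPKM in high glucose, 525 FPKM in low and 430.3 FPKM in galactose and Sdf2l1 at 29.3, 16.7 and 12.7 FPKM in that order in the authors' deposited table. Hspa5, the chaperone BiP, was not called, at 364 against 371 FPKM in the authors' deposited table (q = 0.774). Herpud1, a degradation factor that ATF4 also controls, rose, from 44.3 FPKM to 113 in the authors' deposited table. Of 18 cytosolic heat shock genes 8 were higher and 2 lower: Hspa1b, a heat-inducible HSP70 with a near-identical neighbour, went from 25.2 FPKM to 9.81, and Hsp90ab1, a constitutive HSP90, from 1582 FPKM to 2046 in the authors' deposited table. The atrophy list gave 6 lower and 2 higher of 11, with Fbxo32, the ubiquitin ligase atrogin-1, from 4.78 FPKM to 1.58 in the authors' deposited table.

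Low glucose was a partial step for some genes and no step for others, by the authors' test between low glucose and galactose, which called 33.3% of 14495 loci. The same galactose libraries enter both comparisons, so the values are set side by side only. For several genes the level in low glucose was near that in high glucose and galactose stood apart. Besides the glutathione transferases, Nr4a2, an orphan nuclear receptor, stood at 18.6 FPKM in high glucose, 19.1 FPKM in low and 8.91 FPKM in galactose, and Ndrg1, a stress-responsive gene, at 29.1, 31.5 and 91.7 FPKM in that order in the authors' deposited table. Rdh10, which makes retinal, stood at 16.5 FPKM in high glucose, 16.7 FPKM in low and 9.14 FPKM in galactose and Tnc, the matrix protein tenascin C, at 64.2, 57.2 and 28.8 FPKM in that order in the authors' deposited table. For others low glucose and galactose did not differ by the authors' q. H19 stood at 793 FPKM in high glucose, 209.9 FPKM in low and 217 FPKM in galactose in the authors' deposited table, with q = 0.591 between low glucose and galactose. Hes6, a promoter of myogenic differentiation, stood at 49.4 FPKM in high glucose, 21.6 FPKM in low and 19.8 FPKM in galactose (q = 0.180), and Chrnd at 8.41, 2.70 and 2.81 FPKM in that order (q = 0.693) in the authors' deposited table. Pparg, the adipogenic nuclear receptor, stood at 11.9 FPKM in high glucose, 17.9 FPKM in low and 17.0 FPKM in galactose (q = 0.467) in the authors' deposited table. For a few genes low glucose lay outside the range of the other groups. Slc2a1 was at 72.1 FPKM in low glucose, below both other media, and Acta1 at 11.1 in the authors' deposited table. Igfbp4, another binding protein, stood at 4.93 FPKM in high glucose, 1.4 FPKM in low and 3.05 FPKM in galactose and Il33, an alarmin cytokine, at 2.68, 0.689 and 1.07 FPKM in that order in the authors' deposited table.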

How the data were processed

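Libraries of polyA RNA from C2C12 cells were made with the NEBNext Ultra kit, per the labels' protocols, 4 per group. Sample labels set the groups, although the series' own design text speaks of single muscle stem cells. The submitters' processing notes name build mm10, TopHat2 2.0.10, Cufflinks 2.2.0 and Cuffdiff, whose version is not given in the sources used here. The deposited table gives, per the file headers, 1 FPKM value per group, a log2 fold change, a test score, a p-value and a q-value per locus and pair of groups. The authors deposited no values per library in it, so their q is the only test, and depth is unknown. The authors' log2 fold change and score were not used in the results.

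Computed here were log2((galactose + 1)/(high glucose + 1)), with a pseudocount of 1 FPKM, over loci with status OK, and counts and medians of gene lists, with Python 3.11.15, pandas 2.3.3, numpy 2.4.6 and matplotlib 3.10.9. Where several loci carry a symbol, the locus with the largest summed FPKM was taken. Starts, counted from 0 in the file, are given from 1. RefSeq promoters (GRCm38.p6) were matched by symbol. The reading and counting steps were tested on simulated data.

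Genes were named by rule, among loci with 1 symbol that is no predicted, Rik, Mir, Snor or LOC name: the 25 largest rises and falls, the 12 largest FPKM gains and losses, per list up to 6 called members with the largest difference and the 2 most abundant, loci below 1 FPKM in 1 medium and at 5 FPKM or more in the other, and genes of interest whatever their call. A few genes named by the rule were left out. The members and lists were chosen with earlier results of these data known, so no list count is independent support. Alternatives tried were a stricter q, adjustment within the comparison, larger differences, minimum levels, other pseudocounts, scaling to the same sum, re-centring, and leaving out loci with several symbols.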

Additional observations from a re-analysis of the deposited data

How the results depend on the processing

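The counts of called loci held within 1.5 times under most settings, with 6214 at q below 0.01, 7863 with adjustment within this comparison, 7000 where the larger value is at least 1 FPKM, 5731 at 5 FPKM and 7367 without loci of several symbols. Requiring an absolute log2 difference of at least 1 left 580, of which 283 were higher and 297 lower in galactose. At a larger value of at least 5 FPKM, 3382 higher loci and 2349 lower loci were left, since this filter removes weakly expressed loci. The count between low glucose and galactose ranged from 3518 to 4682 over its alternatives. Of 80 lists with a median, 40 lay above 0, and 25 did after scaling both groups to the same sum, which lowers the median of all tested loci by 0.15. Of 258 called genes named in the report, 2 had a q of 0.01 or more, Cox7a1 and Mlx, and none reversed under any of these settings. Of 51 list medians of at least 0.15 in size, 3 reversed. The Leloir list went to -0.0067 after scaling to the same sum. At 5 FPKM the sugar transporters went to 0.068 and the pyruvate dehydrogenase list to 0.12, where fewer members were left. No paired analysis was possible because the deposited table holds 1 pooled value per group, and for the same reason no library could be left out in turn.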

Other observations

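Imprinted genes, of which 1 parental copy is silent, were looked at after H19 and Peg3 had been seen among the lower genes. Of 32 such genes listed by hand, 20 were tested, 11 were lower in galactose and 3 higher, with a median log2 difference of -0.27. Of all tested loci 24.8% were lower. Among them 5 were lower by a log2 difference of -1 or less. In the authors' deposited table Peg3, a zinc finger factor, stood at 29.2 FPKM in high glucose, 14.8 FPKM in low and 8.98 FPKM in galactose. Peg10, derived from a retrotransposon, stood at 14.2, 8.66 and 3.38 FPKM, and Zim1, next to Peg3, at 3.07, 1.02 and 0.636 FPKM in the same media and table. Cdkn1c, the cell cycle inhibitor p57, stood at 3.28, 1.33 and 0.994 FPKM there. Igf2r, the receptor that clears insulin-like growth factor 2, went the other way, from 11.1 FPKM to 13.1 in the authors' deposited table.

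Loci called with a log2 difference of 1 or more in either direction were also compared with their neighbours, again after the values had been seen. Of 485 such loci that carry a gene symbol, 45 stood in 20 runs of non-overlapping loci that moved in the same direction, 8 runs higher and 12 lower. Neighbours were taken among tested loci with a symbol only. Untested or unnamed loci can therefore lie between the members of a run. The longest was the glutathione transferase cluster on chromosome 9 with Gsta4, Gsta1 and Gsta2, whose copies can share reads. Another higher run held Pla2g4a with Ptgs2 on chromosome 1. Lower runs held Lss, a cholesterol enzyme, with Col6a2 and Col6a1 on chromosome 10, Car3 with Car2 on chromosome 3, Sema3d with Sema3a on chromosome 5, and Zim1 with Peg3as, beside Peg3, on chromosome 7. How many such runs would arise among loci in random order was not tested.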
